A study of Mus musculus with 17 samples.

Results

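The genes described are 10 core genes of the basement membrane: the collagen IV chains Col4a1 and Col4a2, the laminin chains Lama4, Lama5, Lamb1, Lamb2 and Lamc1, the nidogens Nid1 and Nid2, and Hspg2, which encodes perlecan. They were chosen by gene name, with earlier results of these data known. All 10 were measured, by 21 of the 45037 probe sets tested (18193 genes in all). The samples were pancreatic islets of C57BL/6 mice without further treatment, harvested at 0 h after isolation (5 arrays) or after 24 h (6 arrays) or 48 h (6 arrays) in F12K culture medium, to which fetal bovine serum had been added. Each of 6 batches was a pool of islets from 4 mice that was divided between the times, so replicates are numbered by batch and each array stands for pooled animals. Batch 5 entered without a 0 h array, which was not analysed here, and the labels used give neither the age nor the sex of the mice. As the batches were separate pools, p-values measure the spread between pools. The measure was the log2 RMA value of a single-colour Affymetrix whole-genome mouse array, deposited by the authors, and a gene was represented by its probe set with the highest mean level over the 17 arrays.

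A basement membrane is a thin sheet of extracellular matrix that underlies epithelia and surrounds capillaries. Laminins, each built of an alpha, a beta and a gamma chain, assemble into a network at the cell surface, and collagen IV, a triple helix of alpha chains, forms a second, cross-linked network. Nidogens bind laminin and collagen IV, and perlecan is a heparan sulphate proteoglycan that also binds growth factors. In mouse islets much of this matrix lies around the capillaries and is made by endothelial cells, and beta cells attach to its laminins through integrins.

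Expression fell in part of the group over culture, and the chains did not move alike. By 48 h Col4a1, Col4a2, Lama5, Lamb2 and Nid1 had fallen to between 1.86-fold and 1.52-fold lower than at 0 h. Lamb1 was 1.39-fold higher at 24 h than at 0 h, a call made by 1 of its 4 probe sets. Lama4, Lamc1, Nid2 and Hspg2 did not pass the test in any comparison by the probe set that represents them.

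In the fit with limma over all 45037 probe sets (Benjamini-Hochberg adjusted p under 0.05), 1 of the 10 genes rose and 2 fell at 24 h against 0 h, where 8.58% of all probe sets passed (3.86% up, 4.72% down). Of all 18193 genes, each by 1 probe set, 12.1% passed in that comparison (5.44% up, 6.66% down). The arrays of these times did not overlap for 2 of the 10 genes, and for 6.28% of all probe sets. At 48 h against 0 h, 5 genes fell and 0 rose, where 8.47% of probe sets passed (4.67% up, 3.8% down) and 11.7% of genes (6.45% up, 5.27% down). The arrays did not overlap for 4 of the 10 genes, and for 6.6% of all probe sets. At an unadjusted p under 0.05, 6 fell and 0 rose, where 13.7% of genes fell and 12.8% rose by the same measure. At 48 h against 24 h, 1 gene fell and 0 rose, where 0.444% of probe sets passed (0.266% up, 0.178% down) and 0.759% of genes (0.429% up, 0.33% down). The arrays did not overlap for 3 of the 10 genes, and for 1.11% of all probe sets. At an unadjusted p under 0.05, 7 fell and 0 rose between these times, where 6.07% of genes fell and 8.1% rose by the same measure. The median log2 difference of the 10 genes was -0.16 at 24 h and -0.48 at 48 h against 0 h, while that of all probe sets was -0.0064 and -0.014. Between 48 and 24 h it was -0.26, against -0.0030 over all probe sets. For non-overlap and these medians the comparison was over all probe sets, which include those not used to represent a gene. No detection call was used, so levels near or under the table's median of 3.52 were not separated from background, and Lamc1 (mean 3.39) and Nid2 (mean 3.05) lay there.

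**Figure D1:**
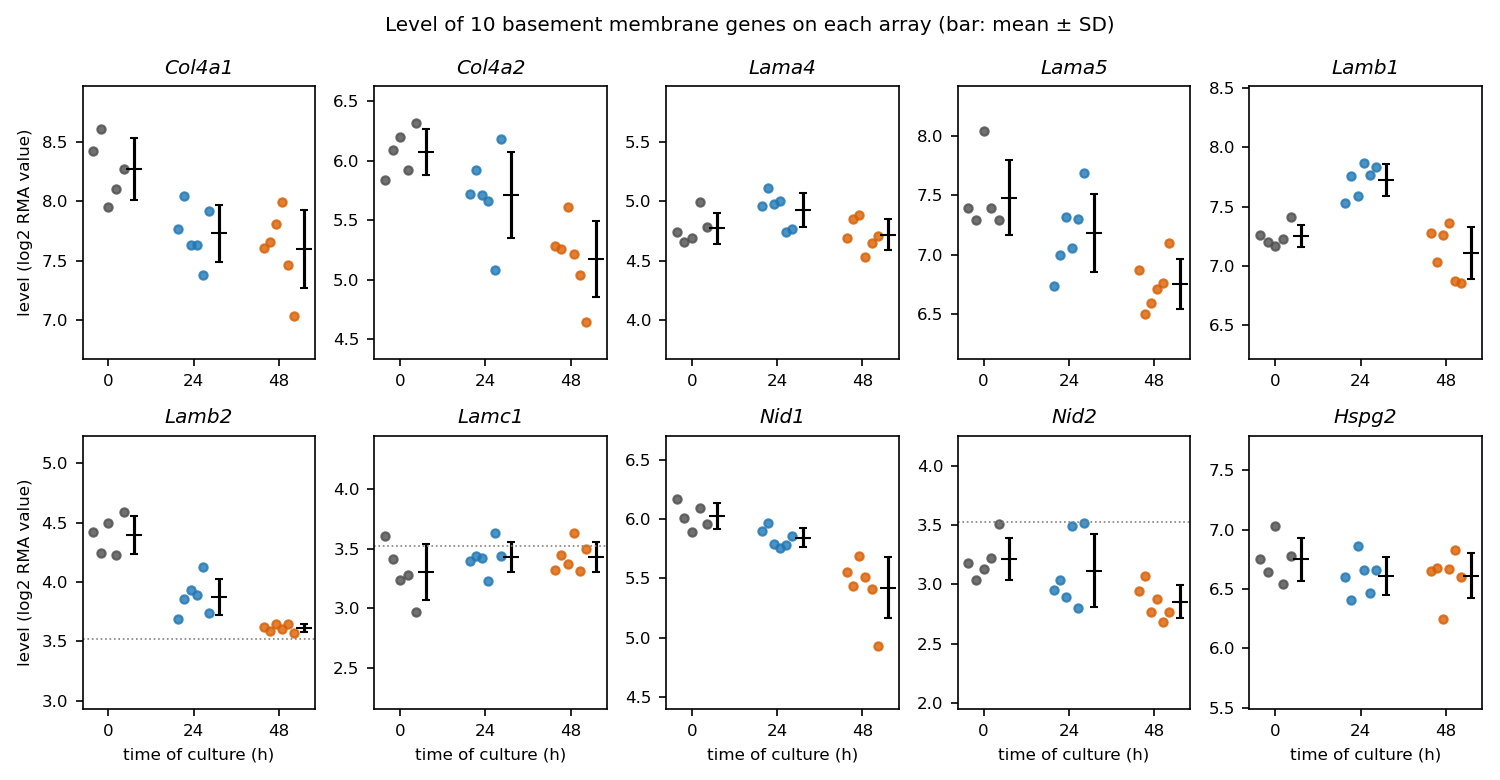
Level (log2 RMA value, vertical axis) of each gene on each array at 0, 24 and 48 h (horizontal axis), with the mean and SD beside the points. All panels span the same width in log2 units, and the dotted line is the table's median of 3.52, where it falls within a panel. Col4a2, Lama5, Lamb2 and Nid1 at 48 h lie under all 0 h arrays, Lamb1 stands above them at 24 h, and Lamc1 and Nid2 lie around or under the median.

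Col4a1 and Col4a2, neighbours on chromosome 8, are transcribed in opposite directions, and both were lower at 48 h than at 0 h. Their annotated starts lie 21 bases apart on opposite strands (RefSeq, GRCm38.p6). Col4a1 starts at 11312826 on the minus strand and Col4a2 at 11312805 on the plus strand, so their annotated transcripts overlap at the start. Lamb1 and Lamb2, which encode alternative beta chains, changed in opposite directions at 24 h. For these 4 genes the 250 bases before the annotated start are shown. Each collagen window lies on the transcribed side of the other collagen gene's start, so neither lies outside both transcripts. A link between these sequences and the changes was not tested. Capitals mark each GC box (GGGCGG) and each CCAAT box (CCAAT) on either strand, and no match overlaps another.
Col4a1, chr8:11312827-11313076, minus strand: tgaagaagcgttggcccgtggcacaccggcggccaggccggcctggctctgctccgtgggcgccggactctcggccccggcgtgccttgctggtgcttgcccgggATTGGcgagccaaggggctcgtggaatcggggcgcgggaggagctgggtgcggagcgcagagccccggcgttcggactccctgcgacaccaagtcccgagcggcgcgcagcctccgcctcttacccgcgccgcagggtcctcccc
Col4a2, chr8:11312555-11312804, plus strand: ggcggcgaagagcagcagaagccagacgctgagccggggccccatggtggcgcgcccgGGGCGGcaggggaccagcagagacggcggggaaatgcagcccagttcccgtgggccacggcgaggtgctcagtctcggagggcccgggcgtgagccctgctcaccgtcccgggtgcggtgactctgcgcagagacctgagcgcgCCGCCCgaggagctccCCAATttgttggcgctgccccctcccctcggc
Lamb1, chr12:31265043-31265292, plus strand: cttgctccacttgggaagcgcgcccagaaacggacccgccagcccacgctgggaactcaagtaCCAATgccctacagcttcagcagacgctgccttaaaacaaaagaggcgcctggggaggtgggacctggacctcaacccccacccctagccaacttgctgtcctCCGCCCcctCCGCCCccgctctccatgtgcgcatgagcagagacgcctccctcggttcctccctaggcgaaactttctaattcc
Lamb2, chr9:108479612-108479861, plus strand: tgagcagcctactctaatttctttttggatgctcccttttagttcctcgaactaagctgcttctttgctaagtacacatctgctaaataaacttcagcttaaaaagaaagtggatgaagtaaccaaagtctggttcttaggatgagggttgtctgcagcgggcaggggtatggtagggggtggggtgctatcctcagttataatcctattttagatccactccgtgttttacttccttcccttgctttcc

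The windows of the collagen genes held 74.4% (Col4a1) and 73.6% (Col4a2) G and C. Col4a1 had 1 CCAAT box and 0 GC boxes, and Col4a2 had 1 CCAAT box and 2 GC boxes. The Lamb1 window, with 62.0% G and C, had 1 CCAAT box and 2 GC boxes, and the Lamb2 window, with 43.6% G and C, had 0 of either. Of the 7 members with an entry, Lama5 had 4 GC boxes, Hspg2 had 5 and Nid1 had 1 GC box and 1 CCAAT box. Over 32851 promoter windows of the same length, 32.7% held a GC box and 33.8% a CCAAT box. An AP-1 site (TGACTCA) and a TATA box (TATAAA), present in 4.46% and 12.4% of all windows on either strand, were found in none of the 7. These matches describe letters and not binding. Lama4, Lamc1 and Nid2 had no entry.

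Col4a1 encodes the alpha 1 chain of collagen IV. Its level was 8.42, 8.61, 7.95, 8.10 and 8.27 at 0 h in batches 1, 2, 3, 4 and 6, ran from 7.38 to 8.04 with a median of 7.70 at 24 h, and from 7.03 to 7.99 with a median of 7.64 at 48 h. The highest arrays at 24 and 48 h reached just above the lowest 0 h array, so the times overlapped. At 48 h against 0 h the log2 difference was -0.68 ± 0.15 (limma's SE, adjusted p = 0.00864), 1.60-fold lower, and Col4a1 was lower in 5 of 5 batches. At 24 h it was -0.54 ± 0.15 (adjusted p = 0.0338), also lower in 5 of 5 batches, but the call was lost with the batch as a fixed block (-0.49, adjusted p = 0.0671), while it held with the batch as a random block (-0.54, adjusted p = 0.0325). It was also lost without 0 h replicate 1 (-0.51), 2 (-0.46) or 6 (-0.54) and without 24 h replicate 1 (-0.55), 3 (-0.52), 4 (-0.52) or 5 (-0.47), with adjusted p between 0.0528 and 0.0996. Its other probe set passed at both times, with -0.36 at 24 h (adjusted p = 0.0135) and -0.52 at 48 h (adjusted p = 0.000892).

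Col4a2, the partner alpha 2 chain, passed at 48 h against 0 h. It stood at 5.84, 6.09, 6.20, 5.92 and 6.32 on the 0 h arrays, at 5.08 to 6.18 (median 5.72) at 24 h and at 4.64 to 5.61 (median 5.24) at 48 h. Every 48 h array was under every 0 h array, whereas the 24 h arrays overlapped both. The fall at 48 h was 1.86-fold (-0.90 ± 0.17, adjusted p = 0.00197), in 5 of 5 batches. At 24 h the difference of -0.36 ± 0.17 did not pass (adjusted p = 0.239). The further difference of -0.53 ± 0.16 at 48 h against 24 h did not pass (adjusted p = 0.170) but was lower in 6 of 6 batches; without 24 h replicate 5 it passed (-0.66, adjusted p = 0.0430).

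The laminin alpha chains differed from each other. Lama5, whose chain is a ligand of integrins on beta cells, stood at 7.39, 7.29, 8.04, 7.39 and 7.29 at 0 h, at 6.74 to 7.69 (median 7.18) at 24 h and at 6.50 to 7.10 (median 6.74) at 48 h. No 48 h array reached the 0 h range. The fall at 48 h was 1.65-fold (-0.73 ± 0.16, adjusted p = 0.00624), in 5 of 5 batches, and it passed without the high 0 h replicate 3 (-0.59, adjusted p = 0.0176). At 24 h the difference was -0.30 ± 0.16 (adjusted p = 0.324), and it was -0.16 without 0 h replicate 3. Its remaining probe sets, with mean levels of 3.52 and 2.59, did not pass, and with the mean of its probe sets the difference at 48 h was -0.31 (adjusted p = 0.0483).

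Lama4, the alpha chain typical of vessel walls, did not pass at any time. Its values were 4.74, 4.66, 4.69, 4.99 and 4.78 at 0 h, 4.74 to 5.11 (median 4.97) at 24 h and 4.53 to 4.88 (median 4.70) at 48 h, and the times overlapped. The log2 difference was 0.15 ± 0.08 at 24 h (adjusted p = 0.344) and -0.05 ± 0.08 at 48 h (adjusted p = 0.781). Its other probe set lay at a mean of 2.41, under the table's median.

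Lamb1 and Lamb2 encode beta chains that replace each other in laminin trimers. Lamb1 stood at 7.26, 7.20, 7.17, 7.23 and 7.41 at 0 h, at 7.53 to 7.87 (median 7.77) at 24 h and at 6.86 to 7.36 (median 7.15) at 48 h. All 24 h arrays were above all arrays of the other times. Lamb1 rose by 0.47 ± 0.10 at 24 h (adjusted p = 0.00326, higher in 5 of 5 batches) and was lower at 48 h than at 24 h by a log2 difference of -0.62 ± 0.09 (adjusted p = 0.00492, lower in 6 of 6 batches). At 48 h against 0 h the difference was -0.14 ± 0.10 (adjusted p = 0.447). The probe set is of the kind that can match several transcripts, and without probe sets of that kind neither call held. The next probe set of Lamb1, at a mean of 3.01, differed by 0.32 at 24 h (adjusted p = 0.0682) and by -0.34 at 48 h against 24 h (adjusted p = 0.164). With the mean of its probe sets the differences were 0.25 and -0.27 (adjusted p = 0.00913 and 0.0235).

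Lamb2 fell at both times. It stood at 4.42, 4.24, 4.50, 4.23 and 4.59 at 0 h, at 3.69 to 4.13 (median 3.87) at 24 h and at 3.57 to 3.65 (median 3.61) at 48 h. The 3 times did not overlap, and the 48 h arrays lay in a narrow band just above the table's median, where differences are compressed. The difference was -0.52 ± 0.08 at 24 h (adjusted p = 0.000255) and -0.78 ± 0.08 at 48 h (adjusted p = 4.28e-06), each in 5 of 5 batches. The step at 48 h against 24 h was -0.26 ± 0.08 (adjusted p = 0.164), lower in 6 of 6 batches.

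Lamc1, the gamma chain shared by most laminins, gave no measure that could be separated from background. Its values spanned 2.97 to 3.61 at 0 h, 3.23 to 3.63 at 24 h and 3.31 to 3.63 at 48 h, and its 2 probe sets differed in sign at 48 h against 0 h (0.13 and -0.30, adjusted p = 0.520 and 0.175).

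Of the nidogens, Nid1 fell at 48 h. It stood at 6.17, 6.01, 5.89, 6.09 and 5.96 at 0 h, at 5.76 to 5.97 (median 5.83) at 24 h and at 4.93 to 5.69 (median 5.47) at 48 h. The 48 h arrays lay under all arrays of the other times. The difference was -0.60 ± 0.10 at 48 h (adjusted p = 0.000730, 5 of 5 batches) and -0.18 ± 0.10 at 24 h (adjusted p = 0.357, 5 of 5 batches). The difference at 48 h against 24 h was -0.42 ± 0.10 (adjusted p = 0.0627, lower in 6 of 6 batches), and it passed without 48 h replicate 3 (-0.47, adjusted p = 0.0331). The other 2 probe sets of Nid1, at means of 3.52 and 2.08, did not pass, and with the mean of its probe sets the difference at 48 h against 0 h was -0.22 (adjusted p = 0.0310). Nid2, under the table's median on all 17 arrays (the highest by a margin smaller than the rounding), ranged from 3.04 to 3.51 at 0 h, 2.80 to 3.52 at 24 h and 2.68 to 3.07 at 48 h, with a difference of -0.36 ± 0.13 at 48 h (adjusted p = 0.0905).

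Hspg2 gave 2 answers. The higher probe set stood at 6.75, 6.64, 7.03, 6.54 and 6.78 at 0 h, at 6.41 to 6.86 (median 6.63) at 24 h and at 6.25 to 6.83 (median 6.66) at 48 h, and all times overlapped. Its difference at 48 h was -0.14 ± 0.11 (adjusted p = 0.520). The second probe set, at a mean of 4.92, fell at 48 h (-0.42, adjusted p = 0.00412) and differed by -0.28 at 24 h (adjusted p = 0.0550). This second probe set, unlike the higher, is of the kind that can match several transcripts.

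**Figure D2:**
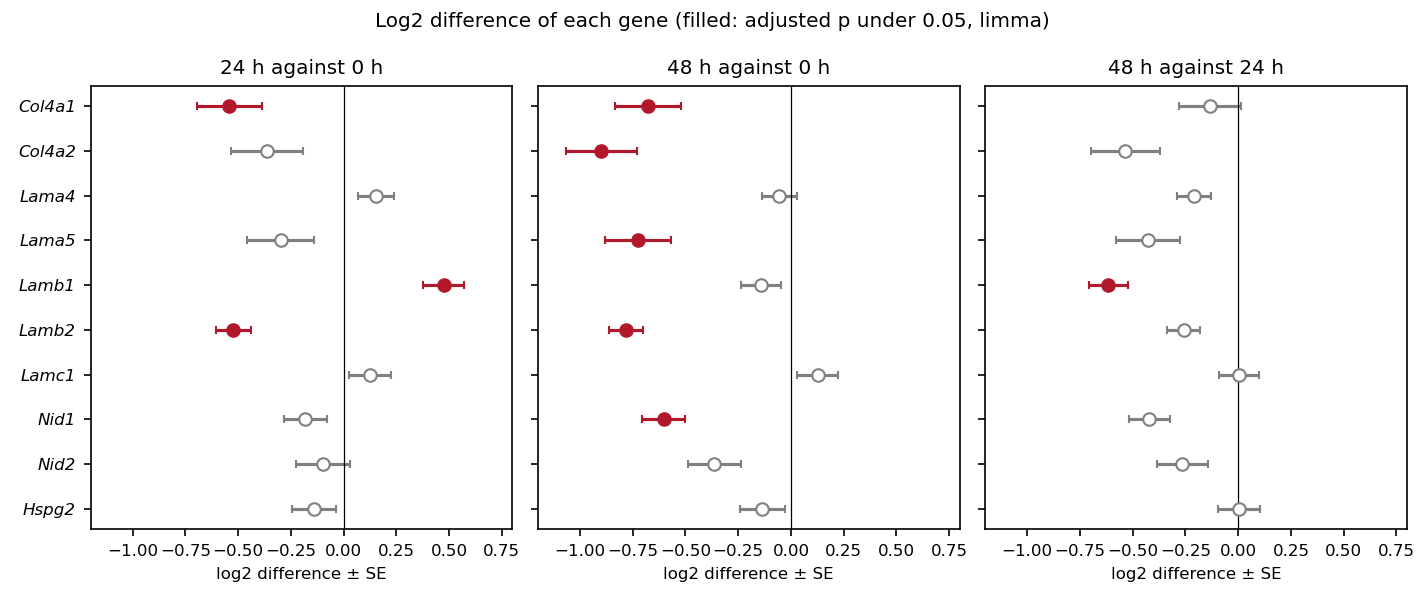
Log2 difference with its SE (horizontal axis) of the 10 genes (rows) in the 3 comparisons (panels). Filled points passed at an adjusted p under 0.05: Lamb1 to the right and Col4a1 and Lamb2 to the left at 24 h, 5 genes to the left at 48 h against 0 h, and Lamb1 alone, to the left, at 48 h against 24 h.

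Of the 21 probe sets, 10 had a mean above the table's median and 11 did not. All 7 that fell at 48 h against 0 h were among the 10, and 0 of the 21 rose. The 3 above the median that did not pass were those of Lama4, Lamb1 and the higher one of Hspg2.

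**Figure D3:**
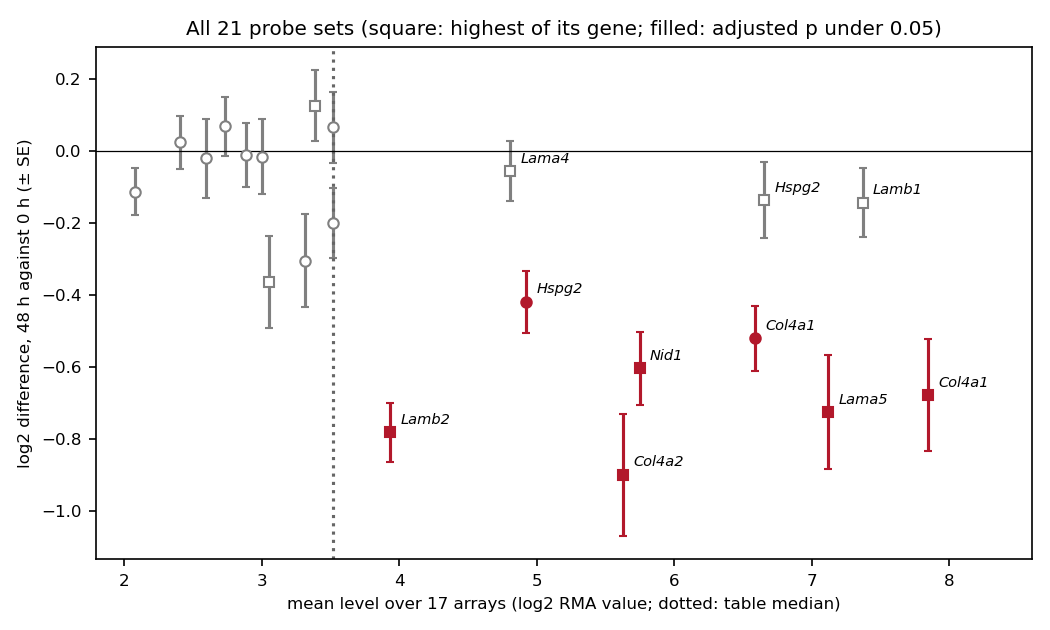
Log2 difference at 48 h against 0 h with its SE (vertical axis) of all 21 probe sets against their mean level over the 17 arrays (horizontal axis). Squares are the highest probe set of a gene, filled symbols passed at an adjusted p under 0.05, and the dotted line is the table's median of 3.52. The filled symbols all lie to the right of that line, between -0.90 and -0.42.

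Whether partner or alternative subunits changed unequally was asked of the log2 difference between them within each array, in 4 pairs and 3 comparisons (exact two-sided permutation test over arrays, adjusted over the 12 tests). Only the change of such a difference is read, since levels of different probe sets are not comparable. The permutation test does not use the pairing of arrays by batch. For each change that passed, a sign-flip test within batches gave its smallest possible unadjusted p. That is 0.0625 over 5 batches, for changes against 0 h, and 0.03125 over 6 batches, for 48 h against 24 h. Lamb1 minus Lamb2 was 3.85 ± 0.18 at 24 h (SD, n = 6) and 2.86 ± 0.13 at 0 h (SD, n = 5). That is a change of 1.00 (1.99-fold; exact p = 0.00216, the smallest possible; adjusted p = 0.0130), with no overlap and the same direction in 5 of 5 batches. It was 3.50 ± 0.21 at 48 h (SD, n = 6), 0.64 above 0 h (exact permutation adjusted p = 0.0130, 5 of 5 batches). Between 48 and 24 h it fell by 0.36 (exact permutation adjusted p = 0.0364, 6 of 6 batches). With the mean of each gene's probe sets this last change was -0.015 (exact permutation adjusted p = 0.851). The call was also lost without 24 h replicate 1, 2, 4 or 6 (-0.36, -0.35, -0.33, -0.31) and without 48 h replicate 2, 3, 5 or 6 (-0.35, -0.38, -0.30, -0.31).

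Lama4 minus Lama5 was -2.04 ± 0.29 at 48 h (SD, n = 6) and -2.71 ± 0.37 at 0 h (SD, n = 5). The change of 0.67 passed (exact permutation adjusted p = 0.0130) without overlap and in 5 of 5 batches, but with the mean of each gene's probe sets it was 0.30 and the call was lost (exact permutation adjusted p = 0.0779). At 24 h against 0 h its change was 0.45 (exact permutation adjusted p = 0.195). Col4a1 minus Col4a2 was 2.42 ± 0.19 at 48 h and 2.02 ± 0.19 at 24 h (SD, n = 6 each), a change of 0.40 (exact permutation adjusted p = 0.0130) in 6 of 6 batches. With the mean of each gene's probe sets it was 0.39 and the call was lost (exact permutation adjusted p = 0.0779). Against 0 h the collagen pair changed by -0.18 at 24 h and 0.22 at 48 h (exact permutation adjusted p = 0.392 and 0.341). Nid1 minus Nid2 passed in none of the 3 comparisons (changes of -0.08, -0.24 and -0.16, lowest exact permutation p = 0.141, adjusted p = 0.241), with Nid2 under the table's median.

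**Figure D4:**
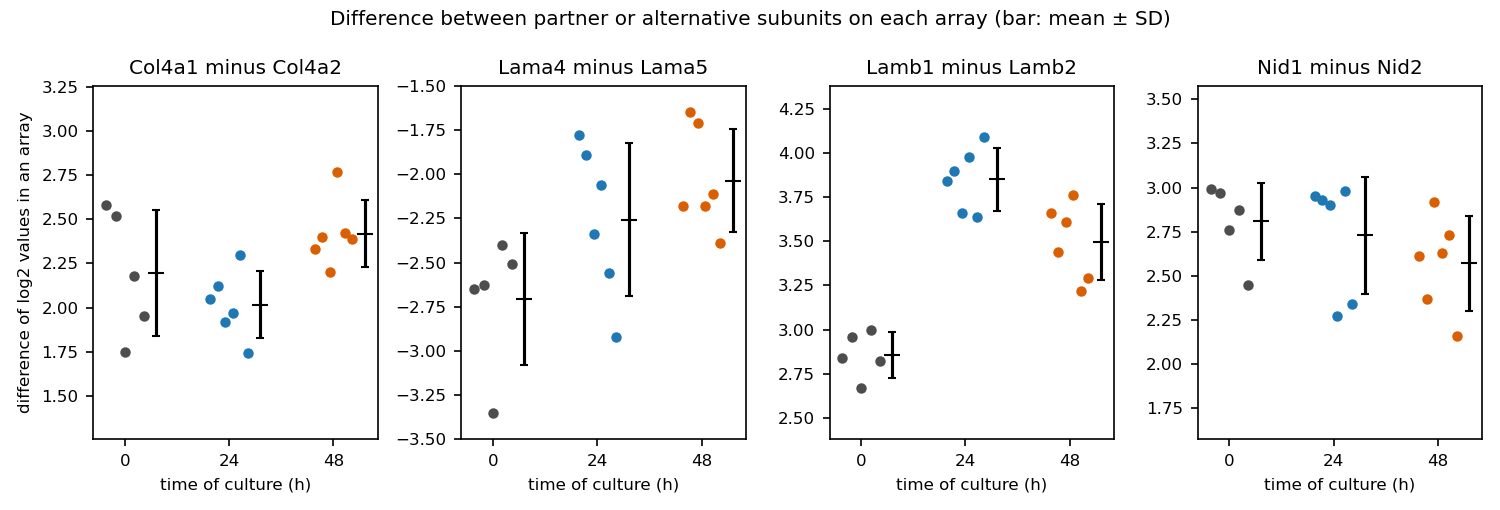
Difference of the log2 values of 2 genes on each array (vertical axis) at 0, 24 and 48 h (horizontal axis), with mean and SD. Lamb1 minus Lamb2 at 24 and 48 h lies above every 0 h array, and Lama4 minus Lama5 at 48 h lies above every 0 h array.

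Within a batch the 6 genes that passed did not all move alike. In batch 6 at 48 h, Col4a1 (7.03), Col4a2 (4.64) and Nid1 (4.93) were each the lowest of the 17 arrays. Lamb1 (6.86, next 6.87) and Lamb2 (3.57, next 3.59) were also lowest there, by narrow margins, while Lama5 (7.10) was the highest of the 48 h arrays. Without 48 h replicate 6 the differences at 48 h against 0 h were -0.56 for Col4a1, -0.79 for Col4a2, -0.51 for Nid1 and -0.79 for Lama5, and all passed (adjusted p = 0.0167, 0.00439, 0.000251 and 0.00466). Batch 5 had the lowest Col4a1 (7.38) and Col4a2 (5.08) at 24 h. Col4a1 was higher at 48 h than at 24 h in 3 of 6 batches and lower in 3.

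**Figure D5:**
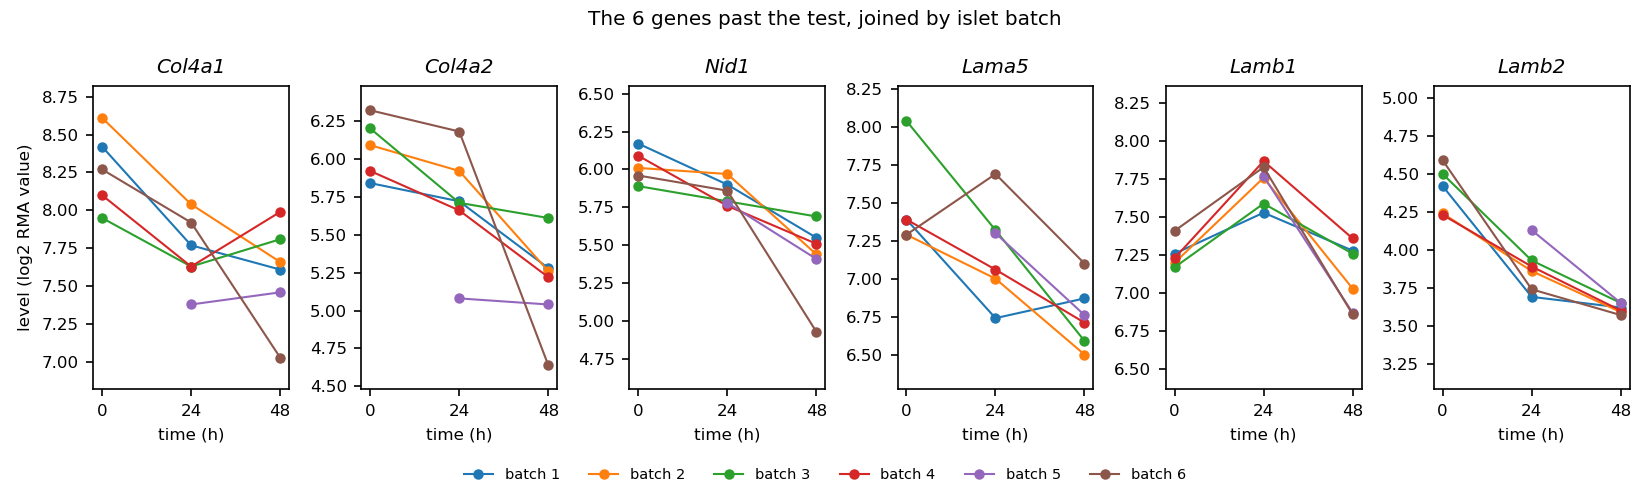
Level (log2 RMA value, vertical axis) of the 6 genes that passed in any comparison, at 0, 24 and 48 h (horizontal axis), with arrays of a batch joined and coloured alike. Lamb1 peaks at 24 h and Lamb2 falls in every batch with all 3 times. At 48 h batch 6 is lowest for Col4a1, Col4a2, Nid1 and, narrowly, Lamb1 and Lamb2, but highest for Lama5.

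Markers of cells that make or border this matrix moved over the same times. Of all 18193 genes, each by 1 probe set, 6.45% rose and 5.27% fell at 48 h against 0 h. At 24 h against 0 h, 5.44% rose and 6.66% fell. At an unadjusted p under 0.05, 12.8% rose and 13.7% fell at 48 h. At 48 h, 9 of 15 endothelial markers had fallen relative to 0 h and 0 had risen (10 and 1 at an unadjusted p under 0.05). At 24 h, 6 had fallen and 1 had risen. The log2 of their summed signal was 10.37 to 10.72 at 0 h, 9.64 to 9.79 at 24 h and 9.01 to 9.42 at 48 h. Such a sum is carried by the strongest signals. Of the 15, 11 had a mean above the table's median and 1 never exceeded it. Of 11 pericyte and smooth muscle markers, 4 fell and 1 rose at 48 h (5 and 1 when blocking on batch), with sums of 9.33 to 9.96 at 0 h, 8.13 to 8.40 at 24 h and 8.35 to 8.87 at 48 h. Of 9 fibroblast and stellate markers, 3 rose and 1 fell at 48 h (3 and 0 when blocking on batch), with sums of 7.19 to 7.81 at 0 h, 6.89 to 7.06 at 24 h and 8.11 to 8.96 at 48 h. The 3 that rose all encode collagens, and no marker of another kind on this list rose. At 24 h against 0 h, 3 of these markers had fallen and 0 had risen. Only 4 of these 9 had a mean above the table's median. The part of these cell types in the results for Col4a1, Col4a2, Lama5, Lamb2 and Nid1 was not tested, and in bulk islets fewer cells of a type and less RNA per cell cannot be told apart.

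The beta cell markers Ins2 (13.76, 13.73 and 13.69 at 0, 24 and 48 h) and Iapp (13.02, 13.10 and 13.00) were near the top of the scale at all times. Neither passed in any comparison, and Ins2 lay close to the highest value of 13.81, where a change may not show. Of 8 beta cell markers measured, 6 fell and 0 rose at 24 h against 0 h, with a median log2 difference of -0.52. Of all genes, 6.66% fell and 5.44% rose in that comparison. At 48 h against 0 h, 5 fell and 0 rose (4 and 0 when blocking on batch), where 5.27% of all genes fell and 6.45% rose. Of 9 acinar markers, 5 fell at 48 h and 0 rose; blocking on batch left 3 and 0. Of 5 duct markers 1 rose and 0 fell at 48 h (1 and 1 when blocking on batch), and of 4 Schwann cell markers 0 passed, also at an unadjusted p. Of 8 macrophage markers 2 fell and 2 rose at 48 h (1 and 2 when blocking on batch). At 24 h against 0 h, 5 macrophage markers had fallen and 1 had risen (5 and 1 when blocking on batch), with a median log2 difference of -0.71. RNA integrity was read from actin: the log2 signal of its 3' end minus that of its 5' end was 2.14 ± 0.11 at 0 h (SD, n = 5), 2.10 ± 0.15 at 24 h (SD, n = 6) and 2.02 ± 0.13 at 48 h (SD, n = 6). Actb differed by -0.17 ± 0.12 at 48 h (adjusted p = 0.458). The 2 arrays least like the others of their time were 0 h replicate 3 and 24 h replicate 5, with median correlations of 0.987 and 0.988. Without both arrays, as with them, 5 of the 10 genes fell at 48 h against 0 h and 0 rose.

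Other components of the basement membrane moved in both directions. Of 28 measured, 4 rose and 5 fell at 48 h against 0 h, and 3 rose and 7 fell at 24 h, with median log2 differences of -0.11 and -0.08. Of all genes, 6.45% rose and 5.27% fell at 48 h, and 5.44% rose and 6.66% fell at 24 h. Agrn, which encodes the proteoglycan agrin, fell by 0.76 at 48 h (SE 0.14, adjusted p = 0.00147), and Ntn4, for the laminin-related protein netrin 4, fell by 0.66 (SE 0.17, adjusted p = 0.0195). Frem2, a gene of the Fras1 complex at epithelial basement membranes, rose by 0.88 ± 0.13 (adjusted p = 0.000227) from a level under the table's median at 0 h. Col18a1, the source of endostatin, rose by 0.53 ± 0.10 (adjusted p = 0.00135).

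Most receptors for the matrix did not pass. Of 14 measured, 2 fell and 0 rose at 48 h (4 and 3 at an unadjusted p under 0.05). Of all genes, 5.27% fell and 6.45% rose (13.7% and 12.8% at an unadjusted p under 0.05). The pair of receptors that fell were Itga1, the alpha chain of a collagen-binding integrin, by 0.36 (SE 0.10, adjusted p = 0.0281), and the proteoglycan gene Sdc2 by 0.34 (SE 0.09, adjusted p = 0.0197). Itga1 ended at a mean of 3.51 at 48 h, just under the table's median, where levels were not separated from background. Of 17 genes for the folding, modification and cross-linking of collagen and laminin, 0 passed with limma in any comparison, and 0 fell and 1 rose at 48 h at an unadjusted p under 0.05.

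Genes for matrix breakdown and its inhibitors rose more than they fell. Of 16 measured, 8 rose and 2 fell at 48 h against 0 h (median log2 difference 0.38), where 6.45% of all genes rose and 5.27% fell. Timp3, an inhibitor of metalloproteases that is held in the matrix, fell 9.40-fold (-3.23 ± 0.14, adjusted p = 4.97e-11), with 4.05 to 4.81 at 48 h and 7.48 to 8.02 at 0 h. Plat, the tissue plasminogen activator, rose 2.39-fold (1.26 ± 0.15, adjusted p = 2.99e-05), and the metalloprotease genes Adamts4 and Adamts1 rose by 1.32 ± 0.18 and 0.83 ± 0.14 (adjusted p = 0.000106 and 0.000696).

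Likeness of pattern over the 17 arrays was measured by Pearson's correlation across 11908 other genes above the table's median. It describes arrays that share their times and batches. The genes most like Col4a2, the member with the largest fall at 48 h, were Shld1 (r = 0.92), Cdipt (0.91), Rasgrp3 (0.91), Srgn (0.91) and Tmem109 (0.90). Since no member rose at 48 h, Lamb1 was added after its values were seen, and its nearest genes were Ccng1 (0.88), Ctla2a (0.87), Med11 (0.85), Thbs1 (0.84) and Fdft1 (0.84). Thbs1, which encodes the matrix protein thrombospondin 1, differed by 1.35 at 24 h and 0.019 at 48 h against 0 h.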

How the data were processed

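Total RNA of islets from 6 batches was amplified, labelled with biotin and measured on 17 single-colour arrays. The authors deposited log2 values from RMA, a tool named by the submitters' processing notes without a version; the log base was inferred from the values (1.55 to 13.81). RMA removes changes shared by most transcripts and compresses differences of weak signals. Of 45101 probe sets, 64 controls were left out. The platform annotation gave 1 symbol for 34945 probe sets, several for 932 and none for 9160; only the first were named.

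Means per time were fitted to all 17 arrays with limma (version 3.58.1, R 4.3.3; lmFit, eBayes), with Benjamini-Hochberg adjustment over 45037 probe sets, no filter on level, and a threshold of 0.05. Errors of differences are limma's SE. limma was tested on simulated data. Pairing comes from the study's design text: arrays of a batch share a pool of islets. Deviations from the time means correlated at a median of 0.0055 over 16 same-batch pairs and -0.0098 over 80 other pairs. Alternatives were the batch as a block, complete batches, only the arrays compared, array weights, another variance prior, other scalings, a filter on level, other summaries of probe sets and leaving out each array. Leaving out 2 arrays together was added after seeing the data.

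Named genes are the 10 members, up to 4 passing genes of each of 4 pathway lists with the largest difference at 48 h among those above the table's median, the 5 genes most like a member, and Actb. Ins2 and Iapp are named as defining markers of the tissue. The members and lists were chosen with earlier results of these data known. Sequences are from RefSeq promoter windows (GRCm38.p6), where 7 of the 10 genes had an entry. Precision is limited by the 5 or 6 arrays a time.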

Additional observations from a re-analysis of the deposited data

Results flagged for a closer look

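Among 30 groups of arrays (10 genes at 3 times), 2 held an array far from the others; chance flags about 1 in 20 groups. Lama5 was 8.04 in 0 h replicate 3, while the rest of the 0 h arrays lay between 7.29 and 7.39. Nid1 was 4.93 in 48 h replicate 6, while the rest of the 48 h arrays lay between 5.41 and 5.69. Both genes also passed at 48 h against 0 h without the array concerned, at -0.59 (adjusted p = 0.0176, limma) for Lama5 and -0.51 (adjusted p = 0.000251, limma) for Nid1.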

How the results depend on the processing

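The count of genes that passed at 48 h against 0 h was 5 or 6, all lower, in every alternative, and 5 in each of the 17 fits that left out 1 array. At 24 h against 0 h it was 2 or 3 in all alternatives. At 48 h against 24 h it was 1, but 2 with array weights, quantile normalization again, the filter on level or without 0 h replicate 3 and 24 h replicate 5 together, 0 without _x_at and _s_at probe sets, and 1 to 2 when leaving out 1 array. As a fixed replicate block, the batch changed only the call of Col4a1 at 24 h (-0.49, adjusted p = 0.0671) among the 10 genes; as a random replicate block it changed none (Col4a1 at -0.54, adjusted p = 0.0325). For Col4a1, complete batches lost the call too (-0.47). With the mean of a gene's probe sets, calls were lost for Col4a1 minus Col4a2 at 48 h against 24 h (0.39), Lama4 minus Lama5 at 48 h against 0 h (0.30) and Lamb1 minus Lamb2 at 48 h against 24 h (-0.015; -0.35 and lost with complete batches; -0.41 to -0.30 when leaving out 1 array). Under the same setting Nid1 minus Nid2 turned to 0.061, 0.15 and 0.086 in the 3 comparisons, and Lamc1 to -0.037, -0.088 and -0.051. The mean includes probe sets under the table's median. When leaving out 1 array, Nid1 minus Nid2 at 24 h against 0 h ran from -0.17 to 0.0082. Uncalled differences at 48 h against 24 h also turned. For Hspg2 they were -0.068 with complete batches, -0.0063 with array weights, -0.052 with quantile normalization, -0.069 with gene means, -0.024 without the pair of arrays and -0.040 to 0.076 when leaving out 1 array. For Lamc1 the last range was -0.038 to 0.043. Hspg2 at 48 h against 0 h passed with gene means (-0.28) and Nid2 with only the arrays compared (-0.36). The mean within-batch differences of the 4 pairs had the direction of the reported changes. Where the change did not pass, 1 or 2 batches went the other way. With 5 batches no sign-flip p under 0.0625 is possible. The cause of these shifts was not tested. Signal over background limits Lamc1, Nid2 and the 48 h level of Lamb2.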

Other observations

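Chains of other laminins and collagens IV were near background, and 2 of them, chosen after their values were seen, fell with limma. Lama3, an alpha chain of epithelial laminins, was 2.85 to 3.08 at 48 h against 3.63 to 3.95 at 0 h (-0.85, adjusted p = 1.30e-06). Col4a4, a collagen IV chain known from kidney, was 2.38 to 2.70 at 48 h against 3.04 to 3.72 at 0 h (-0.74, adjusted p = 9.52e-05). Bgn, which encodes the proteoglycan biglycan, also chosen after its values were seen, fell at 24 h against 0 h (-0.93, adjusted p = 0.00169) and rose at 48 h against 24 h (1.25, adjusted p = 0.00238).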
